A study of Arabidopsis thaliana with 16 samples.

Results

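The genes described here are basic helix-loop-helix (bHLH) and MYB transcription factor genes of Arabidopsis, chosen by symbol. A probe set was taken if it names 1 gene in the platform annotation and that gene's symbol is MYB or bHLH followed by a number. Of 13513 probe sets naming 1 gene, 5 met the rule, all for bHLH genes: bHLH34 (AT3G23210), bHLH104 (AT4G14410), bHLH115 (AT1G51070), bHLH121 (AT3G19860) and BHLH101 (AT5G04150). The count of MYB symbols was 0, so the MYB family was not analysed here. The annotation gives no gene name for 8730 of the 22746 probe sets that are not controls, while RefSeq holds 129 symbols of these forms. The counts of 5 and 0 are therefore those of the annotation and not of the array. Each gene has 1 probe set, so no choice among probe sets was needed, and 4 of the 5 passed the filter on dim signal, BHLH101 being the exception.

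RNA was measured on 16 Affymetrix ATH1 arrays in 7 groups of Ws-0 wild-type material holding heart-stage embryos. Laser capture microdissection, which cuts chosen regions from tissue sections, gave the embryo proper, the micropylar, peripheral and chalazal endosperm, the chalazal seed coat, the seed coat and whole seeds. There were 3 arrays per chalazal compartment and 2 per remaining group, all called biological replicates in the labels, and no group was treated. Which plants supplied an array is not stated, so the p-values rest on array-to-array spread, which may be technical, and in captured tissue fewer expressing cells and less RNA per cell cannot be told apart.

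Proteins of the bHLH family bind DNA as dimers, and many act with MYB partners, for instance in seed coat pigmentation. The 5 genes measured here belong instead to the iron regulatory network of Arabidopsis. bHLH34, bHLH104 and bHLH115 form 1 subgroup with ILR3, and these proteins activate genes of the iron deficiency response. bHLH121 dimerises with them and is needed for that response. BHLH101 belongs to a subgroup of iron deficiency induced genes downstream of them, and PYE is a bHLH repressor of iron genes that acts with ILR3. This network is best known from roots. Developing seeds draw their iron from the mother plant through vascular tissue that ends at the chalazal pole.

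The arrays were not of equal quality for this purpose. The control background, taken as the 95th percentile of 27 Bacillus control probe sets on each array, lay between 31.1 and 33.5 in the embryo proper and between 54.8 and 161 in the chalazal endosperm. The ratio of 3' to 5' signal of the GAPDH control, a measure of bias towards the 3' end, ran from 3.49 to 24.7 over all arrays. Those extremes both lay in the chalazal endosperm, and the cause of the spread was not tested. A marker is called measured here where the annotation names it alone for a probe set that passed the filter on dim signal. The others may still be on the array without a name. Of the markers listed for embryo, 6 of 17 were measured, with a median log2 level of 9.39 in the embryo proper and 6.08 to 7.38 in the other compartments. PHV, CR4 and BBM were highest there, while CLV3 (6.28) and YAB3 (6.38) were not, nor was LHW, at 10.61 there and 11.24 in the chalazal seed coat. The 2 measured endothelium markers of 8 listed, BAN and DFR, had medians of 13.86 and 12.7 in the seed coat and its chalazal region, and 9.84 in the peripheral endosperm against 6.09 in the embryo proper. Of 10 endosperm markers 3 were measured, and their median did not mark the endosperm, at 7.94 to 8.23 there and 9.08 in the chalazal seed coat. AGL62 (8.23) and IKU1 (10.44) were highest in the chalazal endosperm, whereas DME was lowest there, at 6.2 against 10.41 and 9.88 in the micropylar and peripheral regions. The only measured epidermis marker of 9, ARA12, was highest in the seed coat (13.86). None of the vascular markers was measured in this sense.

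Levels below are the deposited signal, or, where a log2 level is named, log2(signal + 30.2) with each array centred on its median. Each gene was read by its own probe set, so levels are compared between compartments and not between genes.

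bHLH34, an activator of the iron deficiency response, gave a signal of 383 and 338 in the embryo proper, 160 and 265 in the micropylar endosperm and 429 and 389 in the peripheral endosperm. In the chalazal endosperm it gave 122.7, 81.3 and 163. The chalazal seed coat had 261, 204 and 529, and the seed coat 676 and 401. Whole seeds gave 285 and 155. The lowest signal was in the chalazal endosperm, whose first 2 arrays lay at or under their control background, the 2 of 16 that did. On the log2 scale the compartment means ran from 9.08 in the seed coat to 7.55 in the chalazal endosperm, a range of 1.53 that did not pass the moderated F test of limma (adjusted p = 0.148).

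bHLH104, a relative with the same known role, gave 961 and 981 in the embryo proper, 528 and 916 in the micropylar endosperm and 1106 and 764 in the peripheral endosperm. The chalazal endosperm gave 640, 454 and 1497, the chalazal seed coat 1886, 2240 and 2233, the seed coat 1168 and 1006, and whole seeds 875 and 826. All 16 arrays were above background, and the 3 chalazal seed coat signals were above each other signal. After centring, chalazal endosperm replicate 3 lay among them, with a log2 level of 11 beside 11.04, 10.94 and 10.94. The chalazal seed coat mean exceeded the next compartment, the seed coat, by 0.88 on the log2 scale, and the range over compartments of 1.39 had adjusted p = 0.137 in the F test. Without the chalazal endosperm arrays the F test gave adjusted p = 0.0237 for this gene, and without chalazal endosperm replicate 3 alone, whose 1497 stood above its 2 companions, it gave adjusted p = 0.0270.

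bHLH115, the remaining member of that subgroup, was the gene whose level varied beyond the replicate spread. Its signal was 617 and 363 in the embryo proper, 785 and 725 in the micropylar endosperm, 587 and 363 in the peripheral endosperm and 280, 141 and 142 in the chalazal endosperm. The chalazal seed coat gave 448, 447 and 1224, the seed coat 983 and 1158, and whole seeds 646 and 563. The 3 chalazal endosperm arrays were the lowest of all 16, and each lay above its control background. On the log2 scale the means fell from 10.07 in the seed coat to 8.04 in the chalazal endosperm, a range of 2.03 with adjusted p = 0.0223 in the F test.

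bHLH121 is the dimer partner of the 3 genes above. It had the widest replicate spread of the tested members in the micropylar and peripheral endosperm and both seed coat regions, but not elsewhere. Its signal was 414 and 580 in the embryo proper, 1067 and 318 in the micropylar endosperm and 293 and 665 in the peripheral endosperm. The chalazal endosperm gave 112.7, 193 and 262, the first at or under background, the chalazal seed coat 2385, 348 and 752, the seed coat 476 and 244, and whole seeds 480 and 598. The SD between replicates on the log2 scale was 1.53 for the chalazal seed coat and 1.36 for the micropylar endosperm, against a median of 0.64 and 0.43 over all tested probe sets in those groups. Its range of means of 1.66 had adjusted p = 0.230 in the F test.

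BHLH101, induced by iron deficiency in vegetative tissue, was at or under the control background on all 16 arrays. Its signal ranged from 1.38 in the peripheral endosperm to 44.4 in the chalazal seed coat, where the other arrays gave 4.20 and 3.53. The highest other arrays were 1 of whole seeds, with 26.6, and 1 of the chalazal endosperm, with 20.2. It was not tested, and no order of groups can be read from values under background.

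**Figure D1:**
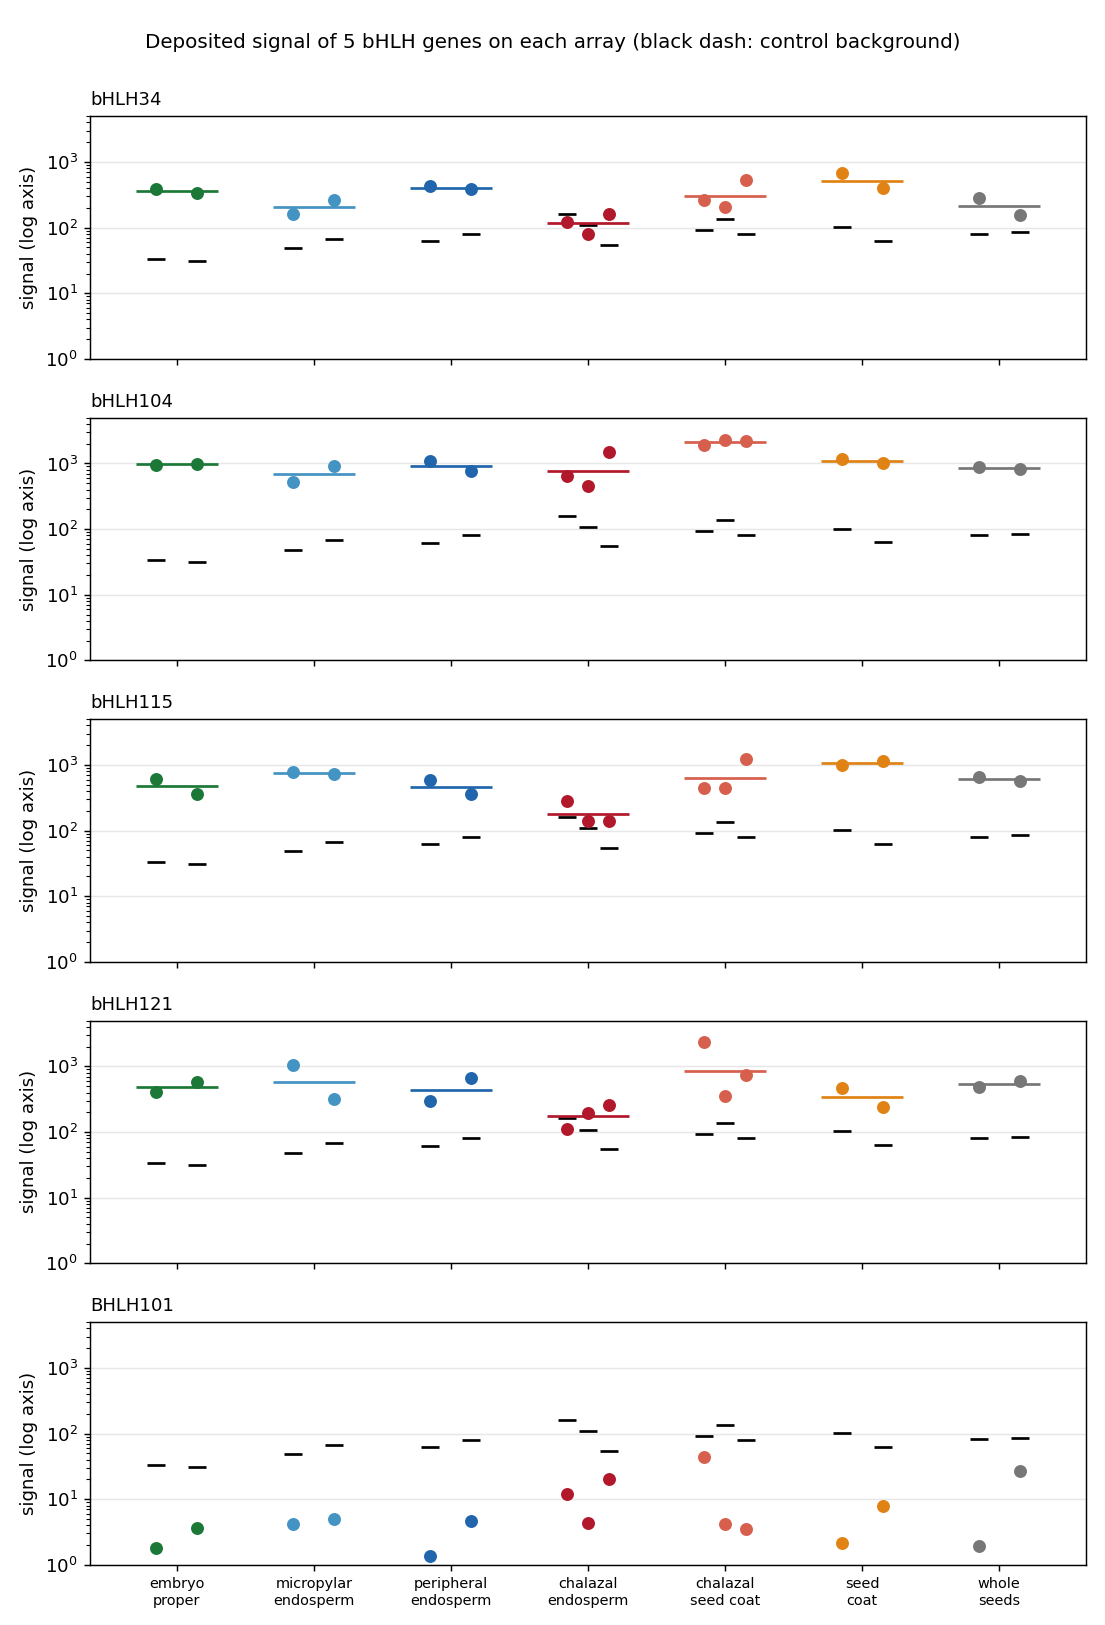
Deposited signal (log axis) of the 5 bHLH genes on each of the 16 arrays, by group, with a coloured line at the geometric mean of a group where the gene was tested and a black dash at each array's control background. The chalazal endosperm arrays of bHLH115 (280, 141 and 142) lie below every other array of that gene, and BHLH101 lies under background throughout.

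In the F test over the 6 compartments 1 of 4 tested members, bHLH115, passed at an adjusted p below 0.05, while 56.6% of all tested probe sets did. The median range of compartment means was 1.59 for the 4 members and 2.13 for all tested probe sets. The call for bHLH115 was lost without chalazal endosperm replicate 2 (adjusted p = 0.0554) or 3 (0.0604), without seed coat replicate 1 (0.0529) or 2 (0.0794), and without all chalazal endosperm arrays (0.243). By means, the seed coat was highest for bHLH34 and bHLH115 and the chalazal seed coat for bHLH104 and bHLH121, while the chalazal endosperm was lowest for all of these but bHLH104, for which the micropylar endosperm was. These orders are a description. Of 20 differences between neighbouring compartments in the 4 orders, 0 passed the limma test (lowest adjusted p = 0.211, and 0 at an unadjusted p below 0.05). Neighbours were picked by sorting the same means and so are the closest ones, which made a pass unlikely for any gene. The arrays did not overlap in 4 of the 20. The share for all tested probe sets was not computed for either count, so nothing is read from them.

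Within the endosperm, the chalazal region (n = 3) was set against the average of its micropylar and peripheral regions (n = 4). bHLH115 was lower in the chalazal endosperm by a log2 difference of -1.31 ± 0.44 (SE; 95% confidence interval -2.21 to -0.40; limma adjusted p = 0.0205), a 2.47-fold difference with no overlap between the arrays. It was the 1 member called of 4, and it was called lower, where 18% of all tested probe sets were called lower and 37.6% in either direction. bHLH121 (-1.10 ± 0.58, adjusted p = 0.140) and bHLH34 (-0.85 ± 0.47, adjusted p = 0.153) did not pass the test, with intervals of -2.29 to 0.10 and -1.80 to 0.11. bHLH104 had 0.20 ± 0.41 (adjusted p = 0.731), and an interval of -0.65 to 1.04. The median of the 4 was -0.98, beside 0.24 over all tested probe sets. Without centring the difference for bHLH115 was -1.57 (adjusted p = 0.00672) and with quantile normalisation -1.17 (0.0384). The call was lost without micropylar replicate 1 (0.0587), peripheral replicate 1 (0.0846), chalazal endosperm replicate 2 (0.0563) or chalazal endosperm replicate 3 (0.0554). The control background was 54.8 to 161 on the 3 chalazal endosperm arrays, replicate 3 being the lowest, and 48.2 to 80.3 on the other 4, and its part in the result was not tested. The GAPDH ratios, 24.7, 3.49 and 4.81 against 7.82 to 18.9, lay on both sides.

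ILR3 and PYE, bHLH genes of the same network whose symbols do not meet the rule, were read beside the members. They are the 2 that were tested of 57 symbols on a list of iron regulators, reductases, transporters, chelator enzymes and ferritins, of which 3 had a named probe set. ILR3 gave a signal of 1332, 1191 and 2610 in the chalazal endosperm, 921 and 831 in the micropylar and 1070 and 736 in the peripheral endosperm. All 3 chalazal arrays were above the other 4, with a log2 difference of 1.11 ± 0.42 (limma adjusted p = 0.0364). PYE gave 1586, 2029 and 705 in the chalazal endosperm, 167 and 89.1 in the micropylar and 341 and 408 in the peripheral endosperm, a log2 difference of 2.70 ± 0.44 (adjusted p = 1.99e-05). Both were higher in the region where bHLH115 was lower. In the chalazal seed coat PYE gave 929, 796 and 706. The chalazal endosperm exceeded it by 1.12 ± 0.47, which did not pass (limma adjusted p = 0.0681). The chalazal difference in endosperm minus that in seed coat did not pass for PYE (1.77 ± 0.69, adjusted p = 0.0717) or ILR3 (1.17 ± 0.65, adjusted p = 0.222). The ILR3 call was lost without micropylar replicate 2 (0.0906), peripheral replicate 1 (0.0503) or 2 (0.116) or chalazal endosperm replicate 3 (0.182), without centring (0.108), with quantile normalisation (0.0779) and with no filter on dim probe sets (0.102), while PYE kept its call when any 1 array was left out.

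**Figure D2:**
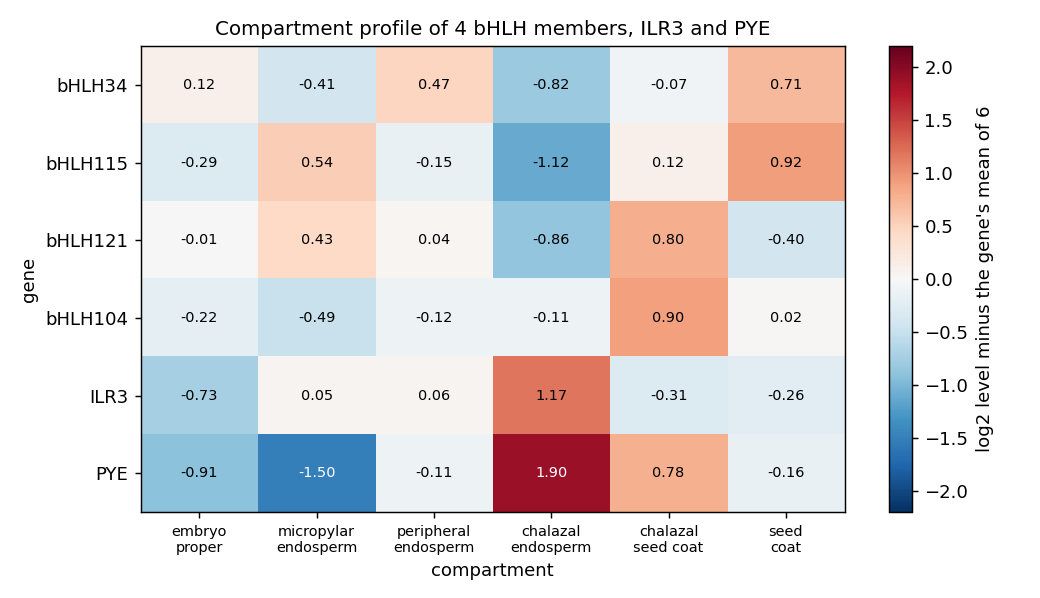
Mean log2 level in each of the 6 compartments minus the gene's mean over the 6, for the 4 tested members and for ILR3 and PYE. In the chalazal endosperm column bHLH34 (-0.82), bHLH115 (-1.12) and bHLH121 (-0.86) lie below their mean and ILR3 (1.17) and PYE (1.90) above it.

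Filial endosperm (3 regions, n = 7) was set against maternal seed coat (both regions, n = 5). All 4 members had negative differences, from -0.76 (bHLH115) to -0.33 (bHLH121), and 0 passed the limma test, where 35.2% of all tested probe sets did. At an unadjusted p below 0.05 there were 2, a count from which nothing is read, as the share of all tested probe sets was not computed there. bHLH115 had -0.76 ± 0.34 (interval -1.46 to -0.05, adjusted p = 0.0880) and bHLH104 -0.70 ± 0.32 (interval -1.36 to -0.04, adjusted p = 0.0914). The arrays of both sides overlapped for each of the 4. Without the chalazal endosperm arrays the difference was -0.35 for bHLH115 and 0.01 for bHLH121, and without chalazal seed coat replicate 1 it was 0.09 for bHLH121. Over all tested probe sets the median was 0.19 in this comparison and -0.02 without centring, where bHLH104 (-0.92, adjusted p = 0.0253) and bHLH115 (-0.98, adjusted p = 0.0314) passed. bHLH104 also passed with quantile normalisation (-0.86, adjusted p = 0.0261), without chalazal endosperm replicate 3 (-0.87, adjusted p = 0.0178) and without all chalazal endosperm arrays (-0.79, adjusted p = 0.0333), and bHLH115 without chalazal seed coat replicate 2 (-0.90, adjusted p = 0.0486).

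The embryo proper (n = 2) was compared with the 3 endosperm regions (n = 7), the tissue that surrounds it. The differences of the 4 members were small, with 0.37 ± 0.49 for bHLH34, 0.12 ± 0.61 for bHLH121, 0.02 ± 0.43 for bHLH104 and -0.05 ± 0.46 for bHLH115. Of these 0 passed the limma test (0 also at an unadjusted p below 0.05), against 13.8% of all tested probe sets. The intervals reached from -0.64 to 1.38 for bHLH34 and from -1.14 to 1.38 for bHLH121. They reached from -0.87 to 0.91 for bHLH104 and from -1 to 0.90 for bHLH115. Differences within these intervals were not excluded.

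Within the endosperm, micropylar and peripheral regions (n = 2 each) gave 0 calls among the members (0 at an unadjusted p below 0.05 as well, limma), with 1.01% of all tested probe sets called. The peripheral arrays of bHLH34 (429 and 389) were above the micropylar ones (160 and 265), a log2 difference of -0.88 ± 0.61 (adjusted p = 0.827), and those of bHLH115 (587 and 363) below (785 and 725), a difference of 0.68 ± 0.58 (adjusted p = 0.898). For bHLH104 (-0.38 ± 0.54) and bHLH121 (0.39 ± 0.76) the arrays of both regions overlapped.

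Within the maternal tissue the chalazal seed coat (n = 3) was set against the seed coat (n = 2). bHLH104 had 0.88 ± 0.49 (interval -0.13 to 1.89, adjusted p = 0.297) with no overlap between arrays, and bHLH121 had 1.20 ± 0.70 (interval -0.23 to 2.63, adjusted p = 0.323), where a single array of 2385 lay far above the other 2. bHLH115 (-0.80 ± 0.53, adjusted p = 0.396) and bHLH34 (-0.78 ± 0.56, adjusted p = 0.444) had the opposite sign. Of the 4 members 0 passed the limma test, against 10.8% of all tested probe sets, and 0 had an unadjusted p below 0.05. Without chalazal seed coat replicate 1 the difference for bHLH121 was 0.38.

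The chalazal difference in endosperm was then set against that in seed coat. It differed for 0 of the 4 members in limma, where 19.9% of all tested probe sets were called at an adjusted p below 0.05. At an unadjusted p below 0.05, where the share of all tested probe sets was not computed, it differed for 1 member. That gene was bHLH121, which had -1.10 in endosperm and 1.20 in seed coat, an interaction of -2.29 ± 0.91 (interval -4.16 to -0.43, adjusted p = 0.0760). It passed without centring (-2.62, adjusted p = 0.0298), without micropylar replicate 2 (-2.77, adjusted p = 0.0333) and without chalazal seed coat replicate 2 (-2.97, adjusted p = 0.0184). Without chalazal seed coat replicate 1 it was -1.47 (adjusted p = 0.234). For bHLH115, lower at the chalazal pole by -1.31 in endosperm and with -0.80 in seed coat, the interaction was -0.51 ± 0.69 (interval -1.91 to 0.90, adjusted p = 0.656), so its chalazal difference was not shown to be particular to the endosperm.

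**Figure D3:**
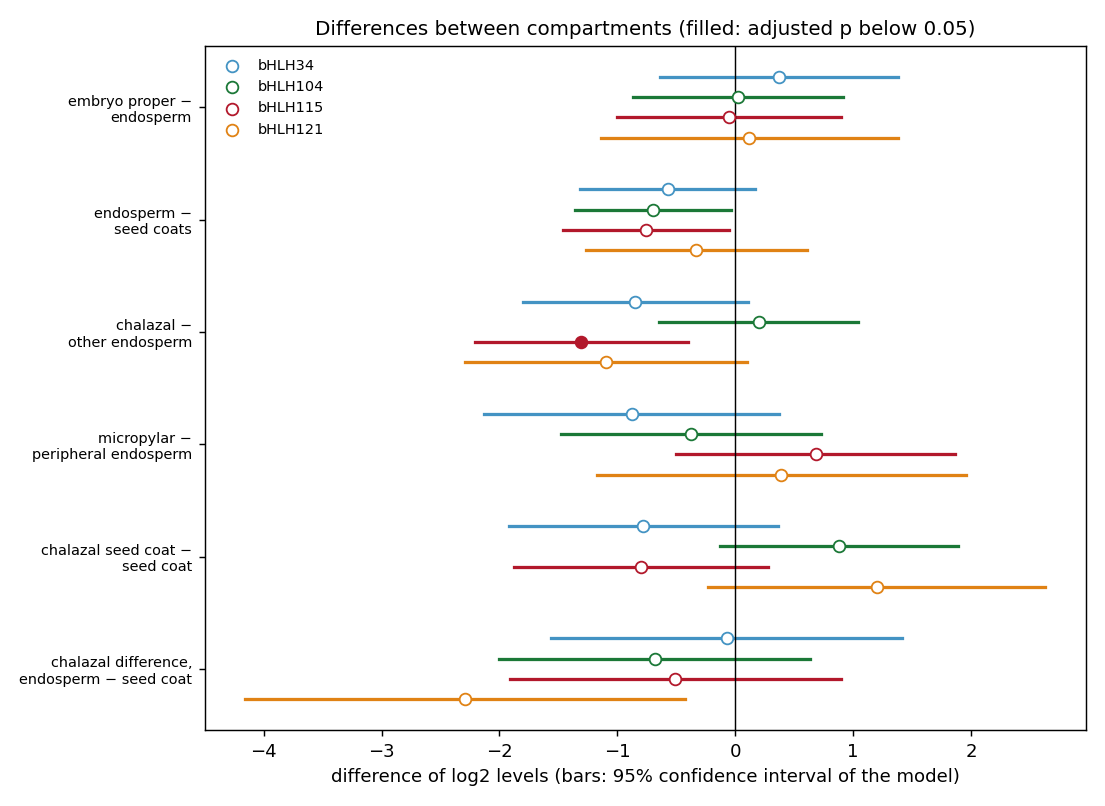
Log2 differences of the 4 tested members in 6 comparisons, with the model's 95% confidence interval; filled points passed at an adjusted p below 0.05. The only filled point is bHLH115 in the chalazal against the other endosperm (-1.31), and of the open points the intervals of bHLH104 and bHLH115 between endosperm and seed coats and of bHLH121 in the interaction leave out 0.

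No member was called enriched in 1 compartment, that is, higher there than in each of the other 5. With 2 or 3 arrays per group, that does not exclude enrichment. In limma 0 of 4 were called, against 8.22% of all tested probe sets at an adjusted p below 0.05. At an unadjusted p below 0.05, where the share of all tested probe sets was not computed, there was 1 member. The gene with the unadjusted call was bHLH104 in the chalazal seed coat, whose smallest gap to another compartment was 0.88. Single pairs of compartments were also compared, 15 for each gene, with p-values adjusted over probe sets and not over pairs, on the same arrays as the comparisons above. Of these 60 tests 6 passed, or 10%, against 21.3% over all tested probe sets and pairs. The shares of all tested probe sets called were 35.6% for chalazal endosperm against seed coat, 35% for chalazal endosperm against chalazal seed coat, 29.7% for micropylar against chalazal endosperm and 22.9% for micropylar endosperm against chalazal seed coat. The chalazal endosperm was 1 side in 5 of the 6. Of the 20 tests with it 25% passed, against 34.2% over all probe sets, and of the 40 without it 2.5%, against 14.8%.

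bHLH115 was lower in the chalazal endosperm than in the seed coat by -2.03 ± 0.53, a 4.08-fold difference (limma adjusted p = 0.00332, and 0.0524 without seed coat replicate 2). The micropylar endosperm exceeded the chalazal by 1.65 ± 0.53 (adjusted p = 0.0185, and 0.136 without micropylar replicate 1). Its difference between the 2 chalazal compartments, endosperm minus seed coat, -1.23 ± 0.47, had adjusted p = 0.0428. That call held only without either micropylar array, chalazal endosperm replicate 1 or chalazal seed coat replicate 1 or 2, and leaving out any 1 of the other 11 arrays raised the adjusted p to between 0.0524 and 0.229. It was also lost with an offset of 1 (0.0526), with array weights (0.0916) and without whole seeds (0.0527).

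bHLH34 was lower in the chalazal endosperm than in the seed coat by -1.53 ± 0.56 (limma adjusted p = 0.0330), with 2 chalazal endosperm arrays under background, so that the size is that of the model. The call was lost without chalazal endosperm replicate 1 (0.0660) or 2 (0.0786) and without seed coat replicate 1 (0.239) or 2 (0.0677). bHLH121 was lower in the chalazal endosperm than in the chalazal seed coat by -1.66 ± 0.62 (adjusted p = 0.0392). That difference was -0.83 (adjusted p = 0.314) without chalazal seed coat replicate 1, and the call was also lost without chalazal seed coat replicate 3 (0.0556) and chalazal endosperm replicate 1 (0.158) or 2 (0.0592), with an offset of 1 (0.0705) and with array weights (0.108). bHLH104 was lower in the micropylar endosperm than in the chalazal seed coat by -1.39 ± 0.49 (adjusted p = 0.0396), a call that held without any 1 chalazal endosperm array or whole seeds replicate 2 and was lost without any 1 of the other 12 arrays (0.0501 to 0.253), with an offset of 1 (0.0542), with no filter (0.0659) and with the replicate block (0.0881).

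Whole seeds entered no test. After centring, their mean log2 level lay below the mean of the 6 compartments for bHLH34 (7.58 against 8.37) and bHLH104 (9.45 against 10.07). It lay below by less for bHLH115 (8.97 against 9.15) and bHLH121 (8.81 against 8.91). The whole seed arrays had the highest median signals of all (175.6 and 185.4), so centring lowered their levels most. The comparison was not computed without centring, so no direction is read for bHLH115 and bHLH121. Both whole seed arrays of bHLH104 (875 and 826) were below every array of the chalazal seed coat and seed coat.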

How the data were processed

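Each array has 1 linear signal intensity per probe set, which the authors made with GCOS, per the submitters' processing notes, without a stated version or settings. Per the labels' protocols, 5 to 6 ng of RNA was amplified. Of 22810 probe sets 64 are controls; of the other 22746, 13513 name 1 gene. The mean signal with extremes trimmed was 499.7 to 499.83 on every array, so the deposited values were already on a common scale. Array medians still differed up to 1.85-fold. As a second scaling, log2(signal + 30.2), the offset being the 25th percentile of all values, was centred on each array's median. The alternative of no centring keeps the deposited scale. The 19475 probe sets above their array's 40th percentile on at least 2 arrays were tested. All of them entered a single fit of 7 group means in limma 3.58.1 (eBayes with intensity trend, R 4.3.3), two-sided unless stated, with Benjamini-Hochberg adjustment at 0.05 over all tested probe sets; the code was tested on simulated data. Enrichment used the largest of 5 one-sided p-values. Shares of all tested probe sets at an unadjusted p below 0.05 were not computed. Tests between single pairs of compartments were added after the data had been seen.

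The members, lists and comparisons were chosen with earlier results of these data known, and the iron list after the annotation had been read. By rule, the named genes are up to 3 called members per comparison and direction with arrays that do not overlap, called enriched members and genes of known role; with 5 members, all are named. Lists drawn up for partners of MYB, MYC and PIF proteins were not used. Alternatives were no centring, quantile normalisation, an offset of 1, no filter, averaged probe sets, array weights, a replicate block, and leaving out arrays or groups. RefSeq (TAIR10.1) served for names only. No coordinates or sequences are printed. The number of arrays limits precision.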

Additional observations from a re-analysis of the deposited data

Results flagged for a closer look

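MYC3, a bHLH activator of jasmonate responses that the symbol rule leaves out, is given because its chalazal difference was not the same in endosperm and in seed coat. Its signal was 121.8, 3.36 and 44.6 in the chalazal endosperm, at or under the control background on all 3 arrays, against 1273 and 784 in the micropylar and 870 and 881 in the peripheral endosperm. The fitted log2 difference was -3.47 ± 0.50 (mean log2 levels 6.51 and 9.98, limma adjusted p = 3.29e-06). With the 3 chalazal endosperm arrays raised to their background, MYC3 was at least 6.12-fold lower there (mean log2 levels 7.37 and 9.98). In the seed coat regions it gave 1467, 1247 and 580 at the chalazal pole and 1000 and 746 elsewhere, a log2 difference of 0.17 ± 0.60. The interaction was -3.64 ± 0.78 (adjusted p = 0.00130), a size that rests on arrays under background, and it stayed past the threshold when any 1 array was left out.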

How the results depend on the processing

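Most counts of called members did not move, but they are counts of 0 or 1 among 4 genes, and depth of signal limits bHLH34 and bHLH121 in the chalazal endosperm and BHLH101 everywhere. Without centring, that is on the deposited scale, the F test called 3 members (bHLH34, bHLH104 and bHLH115). On that scale the comparison of endosperm with seed coat called 2 and the interaction 1. With quantile normalisation the F test called 2 and endosperm against seed coat 1. Without the chalazal endosperm arrays endosperm against seed coat gave 1, and the F test again 1, bHLH104 in place of bHLH115. An offset of 1 left 3 of the 6 called pairs. Leaving out single arrays gave 0 to 1 calls in the F test, in endosperm against seed coat, in the chalazal against other endosperm and in the interaction, 0 in the other 4 comparisons, and 2 to 7 called pairs. Array weights, no filter, averaging probe sets and leaving out whole seeds changed no count by over 1.5 times, but single pairs were lost: with array weights bHLH115 (0.0916) and bHLH121 (0.108) between both chalazal compartments, with no filter bHLH104 between micropylar endosperm and chalazal seed coat (0.0659), and without whole seeds bHLH115 between both chalazal compartments (0.0527). The median over all tested probe sets in the chalazal against other endosperm was 0.24 with 3812 higher and 3509 lower, -0.03 without centring (2775 and 4269) and 0.08 with quantile normalisation (3211 and 3779). Embryo proper against endosperm had 1052 higher and 1627 lower, 1716 and 1110 without centring and 1343 and 1104 with quantile normalisation; endosperm against seed coat had 3852 and 2996, then 2886 and 3650, then 3253 and 3242; and the interaction 2083 and 1802, then 1573 and 2459, then 1735 and 1995. No called value of a member changed sign under any alternative run.

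The labels do not say whether arrays sharing a replicate number belong together. Of 43 pairs of arrays sharing a number across groups, 1 had a correlation of deviations above 0.1 (median 0, highest 0.21). Of 66 pairs with different numbers 1 did as well (median 0, highest 0.11). Groups of 2 or 3 arrays are too small for these values to exclude a pairing. With the replicate number as a block the F test and the chalazal against other endosperm each called 1 member, bHLH115 (-1.46, adjusted p = 0.0120), the 6 other counts of members stayed at 0, and 6 pairs were called, no longer including bHLH104 between micropylar endosperm and chalazal seed coat (adjusted p = 0.0881), while ILR3 had 0.80 (adjusted p = 0.121).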

Other observations

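A list of 5 other bHLH genes was read beside the members: MYC2, MYC3, MYC4, ATMYC1 and AT1G22490, the last bHLH94 by a RefSeq synonym. Of these 3 were tested, and AT1G22490 was called in no comparison. MYC4, a bHLH activator of jasmonate responses, was higher in the seed coat regions. Its signal was 843, 871 and 481 in the chalazal seed coat and 625 and 673 in the seed coat, and between 4.89 and 152 on the 7 endosperm arrays, 5 of which were at or under the control background. All 5 seed coat arrays were above all 7 endosperm arrays. The fitted log2 difference of endosperm minus seed coat was -2.93 ± 0.43 (limma adjusted p = 3.66e-06), and it passed under each alternative run, but its size rests on values under background and was -3.86 with an offset of 1. With those 5 arrays raised to their background the difference was 5.06-fold (mean log2 levels 7.06 and 9.40).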
